A study of Homo sapiens with 4 samples.

Results

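The 10 genes described here are the core of the Notch pathway as it was followed in open chromatin of prostate cancer cells: the receptors NOTCH1, NOTCH2, NOTCH3 and NOTCH4, the ligands DLL1, DLL4, JAG1 and JAG2, and the effectors HES1 and HEY1. They were chosen by name out of 20037 protein-coding genes of the RefSeq table of GRCh38, and all 10 were found in it. ATAC-seq, in which a transposase cuts and tags DNA that is not packed away, was run on 2 libraries of LNCaP and 2 libraries of LNCaP-resistance cells. LNCaP, labelled as wild type, is a prostate cancer cell line of luminal character. LNCaP-resistance cells descend from it and are labelled as treated with enzalutamide, a drug against prostate cancer. According to the study's methods, LNCaP cells were first adapted to serum stripped of steroids and then taken through rising amounts of the drug, so that long drug exposure and steroid loss cannot be told apart in the resistant cells. The labels name neither the subline nor a dose or time, and give 1 medium for both cell types. The labels do not say whether replicates were separate cultures, so the spread between them may be technical.

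Notch receptors sit in the cell membrane and are cut when a ligand on a neighbouring cell pulls on them. The freed intracellular part enters the nucleus, joins the DNA-binding protein RBPJ and switches on HES and HEY genes, which encode repressors. In prostate cancer the pathway is known from luminal and neuroendocrine lineage states.

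Each library was deposited as a list of peak summits, 1 position per peak with a score. The depth of sequencing is unknown, since no reads are counted in the lists. The lists held 117245 and 107344 summits for LNCaP and 70866 and 45618 for the resistant cells. Because the lists differ this much in length, a summit that is missing from a resistant list was not detectable in that list, which does not show that the site was closed. A score was used only as a percentile, meaning how many of every 100 summits in the same list scored no higher, and a locus without a summit was given 0. As a check on list length, percentiles were also computed with the 45570 best summits of every library, called equal lists below. Equal lists cut more summits from the LNCaP lists than from the resistant lists. At the same starting percentile, LNCaP values therefore fall further there, to 0 where the summit is cut. A value higher in both resistant libraries cannot turn lower with equal lists, so its staying higher, or by more, adds no support. With 2 libraries against 2, an exact permutation test cannot give a two-sided p below 0.333, so no test was made and groups are described by whether their values overlap. Of the luminal prostate markers, KLK2, TMPRSS2, FOLH1, HOXB13 and KRT8 had a promoter summit in all 4 libraries, KRT18 in all but resistant replicate 2, and KLK3 in none. Of the neuroendocrine markers, SYP, CHGA, ENO2 and NCAM1 had one in all libraries and INSM1 in none. Of the defining markers of other cell types, TP63, KRT5, PTPRC, PECAM1, CDH5 and COL1A1 had no promoter summit in any library. Others did have one: the fibroblast gene COL1A2 in all 4 libraries, at 63.0 and 55.3 for LNCaP and 37.1 and 17.5 for the resistant cells, the basal gene KRT14 at 34.3 and 40.6 in LNCaP alone, and the T cell gene CD3E in replicate 1 of each group, at 76.3 and 26.4. Their part in the results was not tested. For markers of unknown strand, among them TMPRSS2, FOLH1, HOXB13, KRT18, NCAM1, KRT14, CD3E and COL1A2, a summit near either gene end counted as a promoter summit.

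The promoters of HES1, NOTCH1 and JAG1 are shown first, because these 3 held a summit inside the window from 250 bases before to 50 bases after the start site in every library. The sequences are from RefSeq, build GRCh38.p14, read 5′ to 3′ on the gene's strand, at chr3:194135898-194136197 on the plus strand for HES1, chr9:136545999-136546298 on the minus strand for NOTCH1 and chr20:10673950-10674249 on the minus strand for JAG1. Capitals mark the RBPJ core TGGGAA and the N box CACAAG or CACGAG, the letters bound by HES proteins, each searched on both strands.
HES1: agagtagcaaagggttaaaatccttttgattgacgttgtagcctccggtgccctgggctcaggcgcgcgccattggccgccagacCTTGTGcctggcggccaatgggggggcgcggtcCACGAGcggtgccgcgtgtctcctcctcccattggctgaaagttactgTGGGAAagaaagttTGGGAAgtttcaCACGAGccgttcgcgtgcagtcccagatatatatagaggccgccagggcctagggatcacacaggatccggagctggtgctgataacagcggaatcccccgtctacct
NOTCH1: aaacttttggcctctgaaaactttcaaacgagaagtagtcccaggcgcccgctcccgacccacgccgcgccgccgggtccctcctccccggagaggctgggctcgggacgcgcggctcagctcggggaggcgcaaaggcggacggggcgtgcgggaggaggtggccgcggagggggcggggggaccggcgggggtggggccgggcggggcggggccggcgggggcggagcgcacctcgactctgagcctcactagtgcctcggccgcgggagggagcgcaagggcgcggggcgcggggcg
JAG1: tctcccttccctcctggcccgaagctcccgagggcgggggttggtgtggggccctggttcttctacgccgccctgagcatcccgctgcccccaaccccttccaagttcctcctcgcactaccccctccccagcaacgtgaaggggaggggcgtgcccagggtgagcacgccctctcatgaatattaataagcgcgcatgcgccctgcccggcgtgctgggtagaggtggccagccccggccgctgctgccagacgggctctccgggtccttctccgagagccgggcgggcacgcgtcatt
HES1 carried 2 RBPJ cores, at 84 and 70 bases before the start site, and 3 N boxes, the first of them as CTTGTG on the other strand. NOTCH1 and JAG1 carried neither, and of the 8 members found in the promoter table HES1 alone had an RBPJ core. Of all 15843 promoters of this length, 22.7% held at least 1 RBPJ core and 3.44% held 2 or more, while 17.2% held an N box. An N box also lay in the windows of NOTCH2, NOTCH3 and DLL4, 1 each, and the E box CACGTG, present in 8.88% of all promoters, was in none of the 8. A match describes letters in the window and was not tested for binding. The summits in these windows lay at −82 and −37 bases from the HES1 start site in the LNCaP libraries and at −15 and −124 in the resistant libraries. The NOTCH1 summits fell within −95 to −87 bases in all 4 libraries, on a promoter of 77% G and C against a median of 62.7% over all promoters, and those of JAG1 within −80 to −31. DLL1 and HEY1 were not in the promoter table, which also gives the strand, so distances for these genes are from the end with the higher coordinate and promoter values take either end.

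The 10 loci, each the gene body with 20 kb on either side, held fewer summits in the resistant libraries but a larger share of each list. They held 61 and 57 summits in LNCaP and 48 and 37 in the resistant cells, or 5.21 and 5.32 per 10000 summits of the library against 6.79 and 8.12. The number was lower in both resistant libraries for NOTCH3, JAG1, JAG2, HES1 and HEY1, 5 of 10 members, and higher for none, where 49.8% of all protein-coding genes were lower and 2.33% higher. With equal lists, 1 member was lower and 5 were higher, against 15.8% and 24.9% of protein-coding genes in that setting. The share per 10000 was higher for 7 members, all except NOTCH2, JAG1 and JAG2, and lower for none, against 43.3% and 18.1% of protein-coding genes. DLL1 was the most even locus, with 6 summits in every library.

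The percentile of the strongest summit of a locus was lower in both resistant libraries for NOTCH2, DLL1, JAG1, JAG2, HES1 and HEY1, 6 of 10 members, and higher for NOTCH3, where 40.9% of protein-coding genes were lower and 14.7% higher. The median difference, resistant minus LNCaP, was −5.93 percentile points over the members and −1.88 over all protein-coding genes. With equal lists the picture turned, to 2 lower, NOTCH2 and JAG1, and 6 higher, NOTCH1, NOTCH3, NOTCH4, DLL4, JAG2 and HES1, with medians of 2.76 and 2.84. Of all protein-coding genes, 18.1% were lower and 42.6% higher with equal lists, so the turn was not particular to the members. NOTCH2 and JAG1 were thus lower in both scalings, although equal lists can turn a lower value, as they did for JAG2 and HES1. NOTCH3 was higher in both, but equal lists could not have turned it lower.

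**Figure D1:**
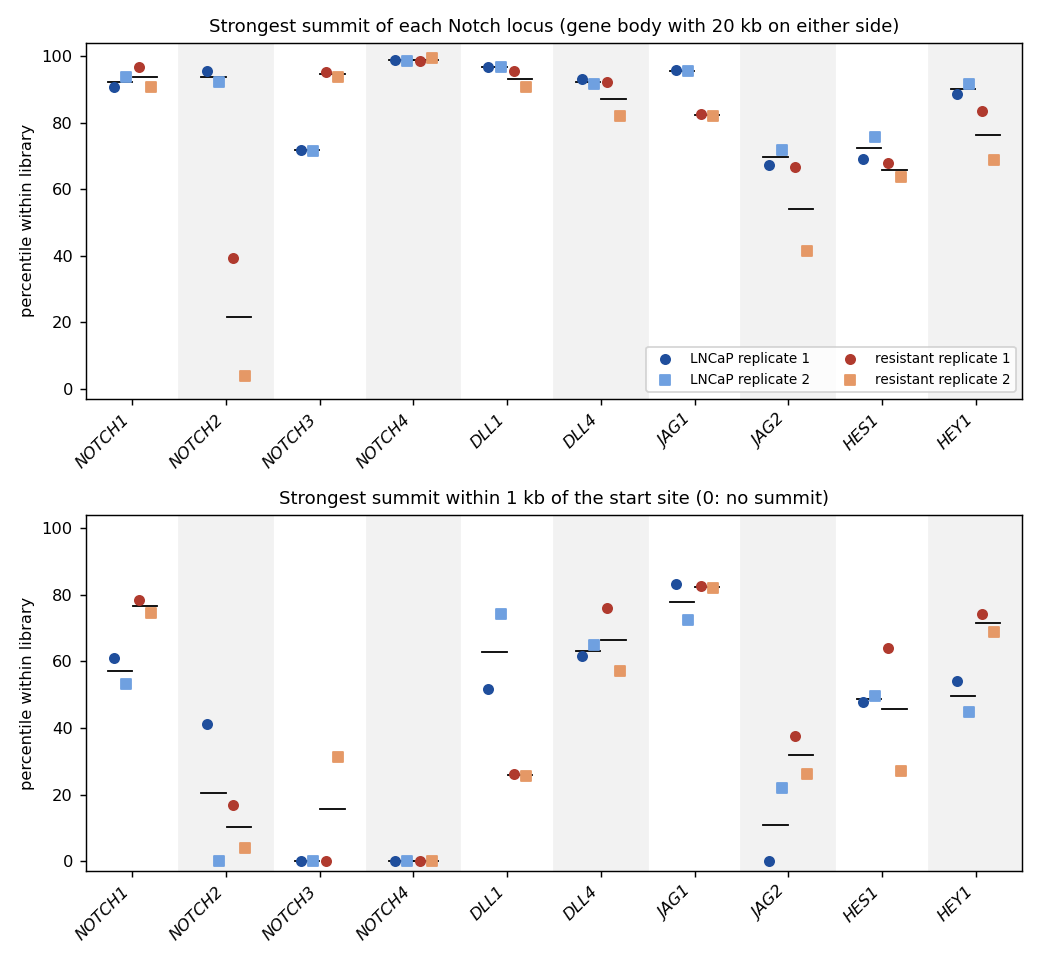
Percentile within its library of the strongest summit of each locus (upper panel) and of the strongest summit within 1 kb of the start site (lower panel; 0 where there was none), for LNCaP (blue) and resistant (red and orange) libraries; points are single libraries and black lines are group means of 2. NOTCH2 stands far lower in the resistant libraries, at 39.2 and 3.86, and NOTCH3 higher, at 95.2 and 93.7.

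Among the receptors, NOTCH2 showed the largest difference in its strongest summit of the 10 members. NOTCH2 encodes a widely expressed receptor, and its gene lies at chr1:119911553-120069662 on the minus strand. Its strongest summit was at percentile 95.4 and 92.1 in LNCaP and at 39.2 and 3.86 in the resistant cells, a difference of −72.3 with a pooled SD of 17.7. Both resistant libraries thus lay far under both LNCaP libraries, and the difference was −80.2 with equal lists. The LNCaP values came from 1 region inside the gene, chr1:119973871-119974379, 95533 bp downstream of the start site, with scores of 50.8 and 36.3 in the LNCaP libraries and no summit in either resistant library. The gene table used gives no exons, so a region inside a gene is not placed in an exon or intron here. A neighbouring region inside the gene, chr1:119948555-119949080, was at 70.6 and 79.1 in LNCaP, at 39.2 in resistant replicate 1 and absent from replicate 2. None of the 7 NOTCH2 regions was present in all 4 libraries. The NOTCH2 promoter had only weak summits, at 41.1 and 0 for LNCaP against 16.8 and 3.86 for the resistant libraries, and these groups overlap.

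NOTCH2 has near-identical copies of its 5′ part, the NOTCH2NL genes, and reads from that part may be shared between them. At the promoter of NOTCH2NLC, the percentiles were 33.2 and 0 in LNCaP and 81.3 and 66.2 in the resistant libraries. NOTCH2NLR had a promoter summit in resistant replicate 1 alone, at 36.1, NOTCH2NLA in resistant replicate 2 alone, at 9.58, and NOTCH2NLB in none. The part that shared reads have in these promoter values was not tested.

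NOTCH3, a receptor best known from vascular smooth muscle, differed in the other direction. Its strongest summit was at 71.7 and 71.6 in LNCaP and at 95.2 and 93.7 in the resistant cells, a difference of 22.8 with a pooled SD of 0.74, and the groups did not overlap. With equal lists the difference was 62.9. The resistant values came from a region inside the gene, chr19:15180968-15181553, 19765 bp downstream of the start site. That region scored 89.97 and 52.5 in the resistant libraries, against 10.1 in LNCaP replicate 1, where it stood at percentile 44.9, and no summit in LNCaP replicate 2. The difference was 72.0 with a pooled SD of 22.5, and 93.2 with equal lists, where neither LNCaP list kept it. The LNCaP values came from other regions, which ranked lower in the resistant libraries without overlap. In the downstream flank, chr19:15150338-15150894 stood at 71.7 and 67.6 in LNCaP and at 63.1 and 38.1 in the resistant libraries. Inside the gene, chr19:15177430-15178037 stood at 45.7 and 71.6 in LNCaP, at 31.0 in resistant replicate 1 and was absent from replicate 2. The 2 LNCaP-only regions of the locus were weaker, at 51.4 and 40.2 for chr19:15153926-15154430 in the downstream flank and at 4.70 and 38.5 for chr19:15161512-15162036 inside the gene, and with equal lists neither was left in any library. The NOTCH3 start site had a summit in resistant replicate 2 alone, at 31.2, 34 bases downstream of it, so that the strongest NOTCH3 site was not at the promoter in any library.

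NOTCH1, the receptor most often altered in leukaemia, had a strong site that all 4 libraries shared and a promoter that ranked higher in the resistant cells. The shared site, chr9:136539549-136540098, lies inside the gene 6200 bp from the start and stood at 90.8 and 93.6 in LNCaP and 96.7 and 90.7 in the resistant libraries, which overlap. With equal lists both resistant libraries were above both LNCaP libraries, by 12.2. The promoter was at 61.1 and 53.3 in LNCaP and at 78.4 and 74.6 in the resistant cells, higher by 19.3 with a pooled SD of 4.36. With equal lists the difference was 70.5, as the LNCaP summits lay close to the cut or under it. With the full lists NOTCH1 was also the one member with resistant-only regions, 2 of its 10, whereas with equal lists 11 such regions lay in 7 members. The first, chr9:136512767-136513341 inside the gene, was at 39.2 and 10.2, and the second, chr9:136482831-136483345, at 50.1 and 48.1, lay in the flank inside the neighbouring gene SEC16A. The first overlapped between the groups at a score of at least 10, and windows of 500 bp merged the second with a shared region, which left a difference of 13.3.

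NOTCH4, a receptor of endothelial cells, had no promoter summit in any library, although its locus held the highest percentiles of the 10. Its strongest site stood at 98.8 and 98.5 in LNCaP and at 98.4 and 99.4 in the resistant libraries, and the groups overlap. The site, chr6:32194920-32195915, is at the far end of the gene, 28413 bp from the start and 131 bp from an end of GPSM3. NOTCH4 lies in a gene-dense stretch, and 3 of its 5 regions were within 1 kb of an end of another gene, namely RNF5, PBX2 or GPSM3. The endothelial markers PECAM1 and CDH5 had no promoter summit in any library.

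**Figure D2:**
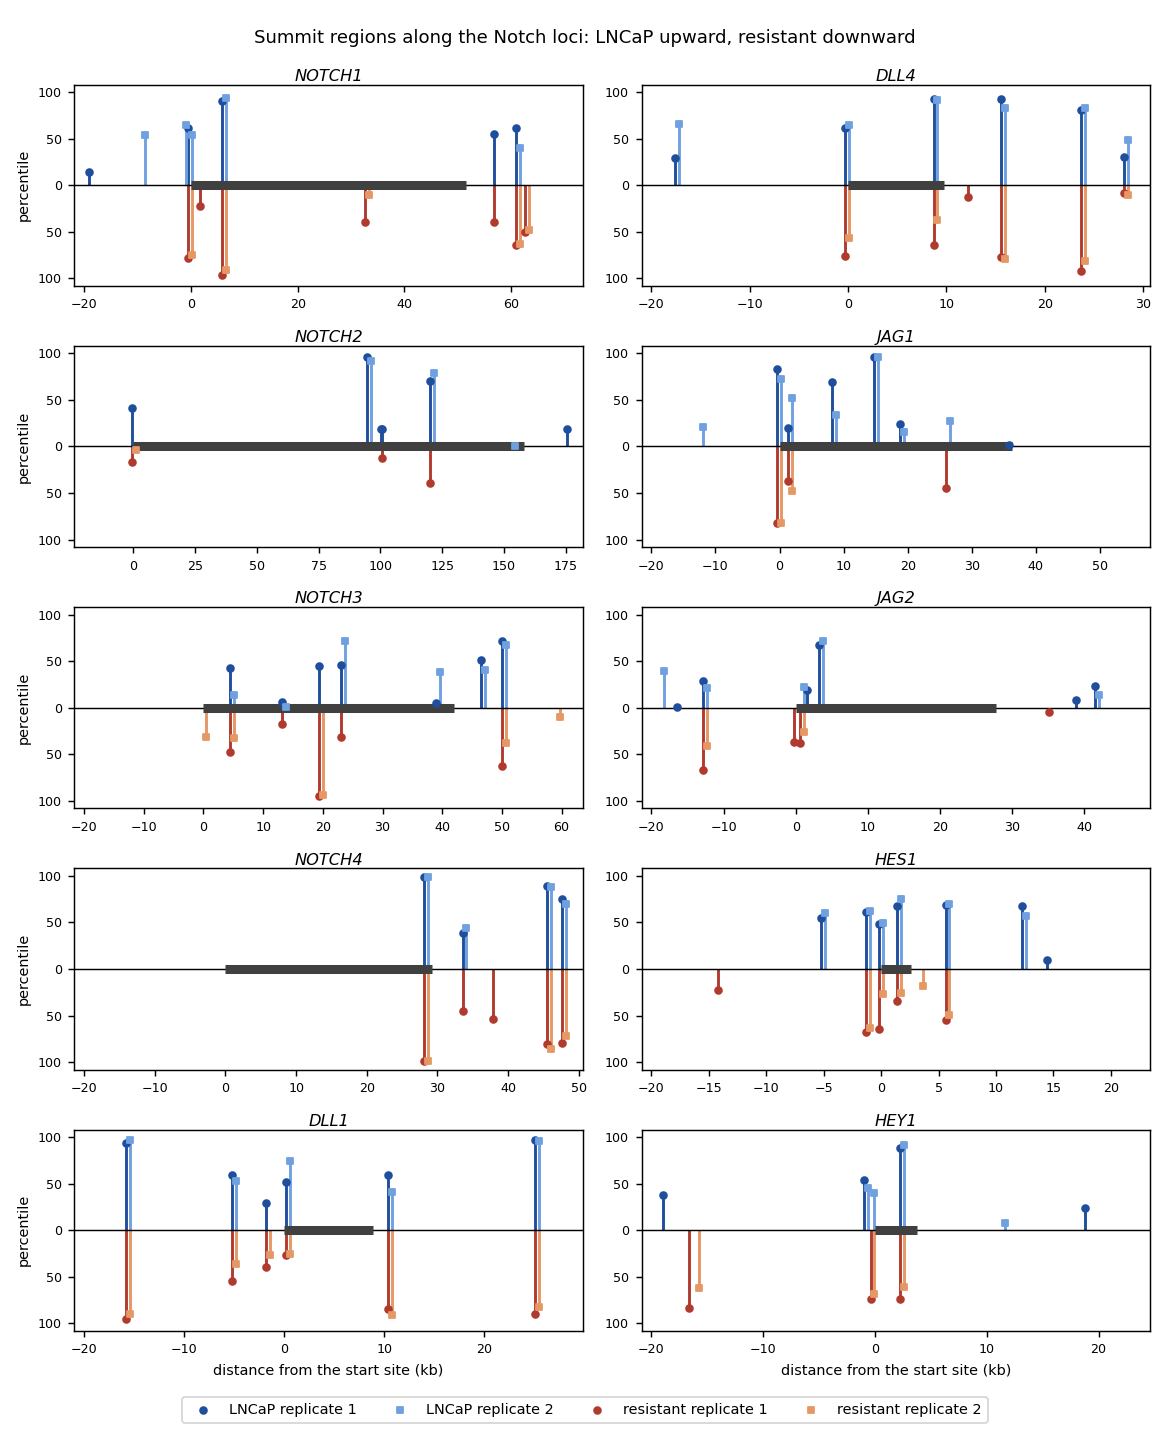
Regions of the 10 loci by distance from the start site in kb (x axis) and percentile within the library (y axis), LNCaP libraries drawn upward and resistant libraries downward; the grey bar is the gene body, and for DLL1 and HEY1 the end with the higher coordinate stands for the start site. NOTCH2 and JAG1 each have a tall LNCaP pair above 90 with nothing opposite, and NOTCH3 has a resistant pair at 95.2 and 93.7 opposite a single LNCaP summit at 44.9.

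Among the ligands, JAG1 had a promoter summit in all 4 libraries and a strong internal site in LNCaP alone. JAG1 encodes a membrane ligand of the Jagged class, and its gene lies at chr20:10637684-10673999. Its promoter was at 83.2 and 72.3 in LNCaP and at 82.6 and 82.1 in the resistant libraries, values that overlap, and with equal lists it was higher in the resistant libraries by 31.6. The site chr20:10658707-10659223, inside the gene 15026 bp from the start, stood at 95.8 and 95.4 in LNCaP with scores of 51.9 and 43.6, and neither resistant library had a summit there. The difference was −95.6 with a pooled SD of 0.18, and −89.3 with equal lists. JAG1 had 2 more LNCaP-only regions, both inside the gene, chr20:10665083-10665764 at 69.5 and 33.7 and chr20:10654512-10655088 at 24.3 and 15.7. With equal lists the first of these overlapped between the groups, with a difference of −10.8, and the second was in no library. In the resistant cells the strongest summit of the locus was the promoter itself, so the locus differed by −13.3, with a pooled SD of 0.31.

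JAG2, the second Jagged ligand, stood lower in percentile than most members, with its strongest summit at 67.3 and 71.8 in LNCaP and at 66.8 and 41.4 in the resistant cells. That difference of −15.4 turned to 20.1 with equal lists. The LNCaP values came from an LNCaP-only region, chr14:105165081-105165602, inside the gene 3445 bp from the start. The resistant values came from chr14:105180517-105181583 in the upstream flank, 11 bp from an end of NUDT14. That flank region was shared, at 29.0 and 21.0 in LNCaP against 66.8 and 41.4, higher by 29.1 with a pooled SD of 13.3, and by 44.9 with equal lists, but the groups overlapped at a score of at least 10. At the JAG2 promoter the percentiles were 0 and 21.9 in LNCaP and 37.6 and 26.2 in the resistant libraries, higher by 20.9 with a pooled SD of 12.3. At a score of at least 10 this difference was 2.42 and the groups overlapped.

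DLL1, a Delta-class ligand that is itself active in neural and endocrine differentiation, had 5 of its 6 regions in all 4 libraries, the largest shared part of any member. The site chr6:170306358-170306962, in the flank and inside the neighbouring gene FAM120B, stood at 93.5 and 96.7 in LNCaP and at 95.4 and 89.9 in the resistant cells, values that overlap. The strongest summit of the locus came from 3 different regions over the 4 libraries, and its difference of −3.57 became 0.047 with equal lists. In the other direction, the region chr6:170279868-170280786 on the side away from FAM120B was at 59.4 and 40.6 in LNCaP and at 84.7 and 90.8 in the resistant libraries. This rank was higher in both resistant libraries by 37.7 with a pooled SD of 9.88. With equal lists the difference was 83.5, where neither LNCaP list kept a summit in the region. At the promoter region, chr6:170290320-170291083, LNCaP stood at 51.6 and 74.1 and the resistant libraries at 26.1 and 25.6, a difference of −37.0 with a pooled SD of 11.3. With equal lists that difference was −6.76 and the groups overlapped, and a promoter of 3 kb on either side of both gene ends turned it to 21.0. The promoter region is 46 bp from an end of FAM120B, and which of the 2 genes it belongs to cannot be told apart.

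DLL4, the Delta-class ligand of sprouting vessels, had 5 of its 7 regions in all 4 libraries. Its strongest summit was at 92.9 and 91.7 for LNCaP and 92.3 and 82.0 for the resistant cells, which overlap. The difference of −5.20 turned to 3.81 with equal lists. The LNCaP values came from inside the gene. Both resistant values came from chr15:40953003-40953558 in the downstream flank, 218 bp from an end of CHAC1, which stood at 80.2 and 83.1 in LNCaP. With flanks of 5 kb, which leave that region out, the locus was lower in both resistant libraries, by a difference of −25.9. The DLL4 promoter stood at 61.5 and 64.9 in LNCaP against 75.9 and 57.0 in the resistant libraries, which overlap. With equal lists it was higher in the resistant libraries by 50.6. The clearest difference was inside the gene at chr15:40937869-40938484, 8894 bp from the start. There LNCaP stood at 92.9 and 91.7 and the resistant libraries at 64.8 and 37.1, without overlap, a difference of −41.4 with a pooled SD of 13.9 and of −40.0 with equal lists. The upstream LNCaP-only region chr15:40911686-40912203, at 28.8 and 65.5, overlapped between the groups with equal lists, with a difference of −9.40. Downstream of the gene, chr15:40957385-40958507 stood at 30.3 and 48.2 in LNCaP and at 8.46 and 10.2 in the resistant libraries. The difference of −30.0 turned to 5.07 with equal lists, and the region lies 1123 bp from an end of CHAC1.

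Of the effectors, HES1 overlapped between the groups at its promoter and HEY1 ranked higher there in both resistant libraries. HES1, the repressor whose promoter is printed above with its 2 RBPJ cores, had a promoter summit in every library, at 47.9 and 49.5 in LNCaP and at 64.2 and 27.0 in the resistant cells. The resistant values lay on either side of the LNCaP pair, and with equal lists both were higher, by 35.7. Outside the promoter, the region chr3:194137235-194137945 inside HES1, 1546 bp from the start, was at 67.3 and 75.6 in LNCaP and at 34.4 and 25.9 in the resistant libraries, a difference of −41.3 with a pooled SD of 5.95. With equal lists the difference was −16.3 and the groups overlapped. A pair of LNCaP-only regions flanked the gene, chr3:194130868-194131378, 5030 bp upstream, at 54.6 and 59.5, and chr3:194148331-194148842, downstream, at 67.2 and 56.6. With equal lists their differences were −2.39 and −7.80, and in both the groups overlapped. The strongest summit of the locus was at 69.2 and 75.6 in LNCaP and at 67.8 and 63.7 in the resistant libraries. That difference of −6.65 turned to 25.1 with equal lists, and it compares different regions. LNCaP replicate 1 took its value from chr3:194141676-194142369 downstream, at 69.2 and 69.9 in LNCaP against 55.3 and 49.7. LNCaP replicate 2 took its value from the region inside the gene. Both resistant values came from chr3:194134737-194135349, 1161 bp upstream. This shared region ranked higher in both resistant libraries, against 61.3 and 62.1 in LNCaP.

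HEY1, a repressor of the same family, had its strongest LNCaP site inside the gene, 2395 bp from the end taken as the start, at 88.5 and 91.7. In the resistant libraries that site stood at 73.7 and 60.97, lower without overlap by a difference of −22.8 with a pooled SD of 6.56, and of −15.4 with equal lists. The promoter differed in the opposite direction, at 54.1 and 44.8 in LNCaP and at 74.3 and 68.9 in the resistant cells, higher by 22.1 with a pooled SD of 5.38. With equal lists the difference was 64.5, where neither LNCaP list kept a promoter summit. The summits at the promoter fell into neighbouring windows, one at 759 bp upstream that both LNCaP libraries had and no resistant library, and one at 216 bp upstream that both resistant libraries had together with LNCaP replicate 2. With windows of 500 bp on either side these were 1 region that ranked higher in the resistant libraries, so the LNCaP-only call at this promoter depended on the window. Further upstream, the resistant libraries had summits with no LNCaP counterpart, at 83.5 in replicate 1 and 61.8 in replicate 2, which fell into adjoining windows 16430 and 15919 bp from the start. Taking the promoter as 3 kb brought in the internal site and turned the promoter difference to −18.5. The strongest summit of the locus was at 88.5 and 91.7 in LNCaP and at 83.5 and 68.9 in the resistant libraries, a difference of −13.9. It compares different regions, the internal site in LNCaP, the upstream summit in resistant replicate 1 and the promoter in resistant replicate 2. With equal lists the locus difference was −3.79 and the groups overlapped.

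Across the members, promoters ranked higher in both resistant libraries for NOTCH1, JAG2 and HEY1 and lower for DLL1, with 6 members overlapping. The calls for DLL1 and HEY1 turned with a promoter of 3 kb, and that for JAG2 was lost at a score of at least 10. Of all protein-coding genes, 20.4% were higher and 15.3% lower at the promoter. With equal lists 6 members were higher and none was lower, where 43.8% and 3.89% of protein-coding genes were. A promoter summit was present in every library for 6 of the 10 members.

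Merging summits within 250 bp on either side over the 4 libraries gave 79 regions at the member loci, out of 150917 in all. Of these, 26 (32.9%) were shared by all libraries, 12 (15.2%) had a summit in both LNCaP libraries and no resistant library, 2 (2.53%) were resistant-only and the other 39 were mixed. Over all regions the shares were 21.1% shared, 27.5% LNCaP-only and 3.84% resistant-only. With equal lists there were 15 shared, 3 LNCaP-only and 11 resistant-only member regions of 54, against 26.8%, 17.1% and 14.9% of all regions. The 12 LNCaP-only regions lay in 7 members, with 6 inside genes, 5 in flanks and 1 at a promoter, that of HEY1. Of the 26 shared regions, 10 ranked lower in both resistant libraries and 5 higher, against 41.8% and 17.7% of all shared regions, and with equal lists the counts were 3 and 9 of 15, against 23.7% and 42.8%. The median change was −1.11 percentile points at the members' shared regions and −4.65 over the series.

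The LNCaP-only NOTCH2 and JAG1 sites were 2 of 7 member regions that reached percentile 90 in both LNCaP libraries, and the other 5 were shared by all libraries. Over the series, 13.9% of the 8591 such regions were LNCaP-only. The NOTCH3 site was 1 of 3 member regions that reached percentile 90 in both resistant libraries, and it was under 50 or absent in both LNCaP libraries. Of the 4160 such regions over the series, 2.38% met that description. These limits were chosen after the values had been seen, so the shares place the 3 sites and support nothing further.

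**Figure D3:**
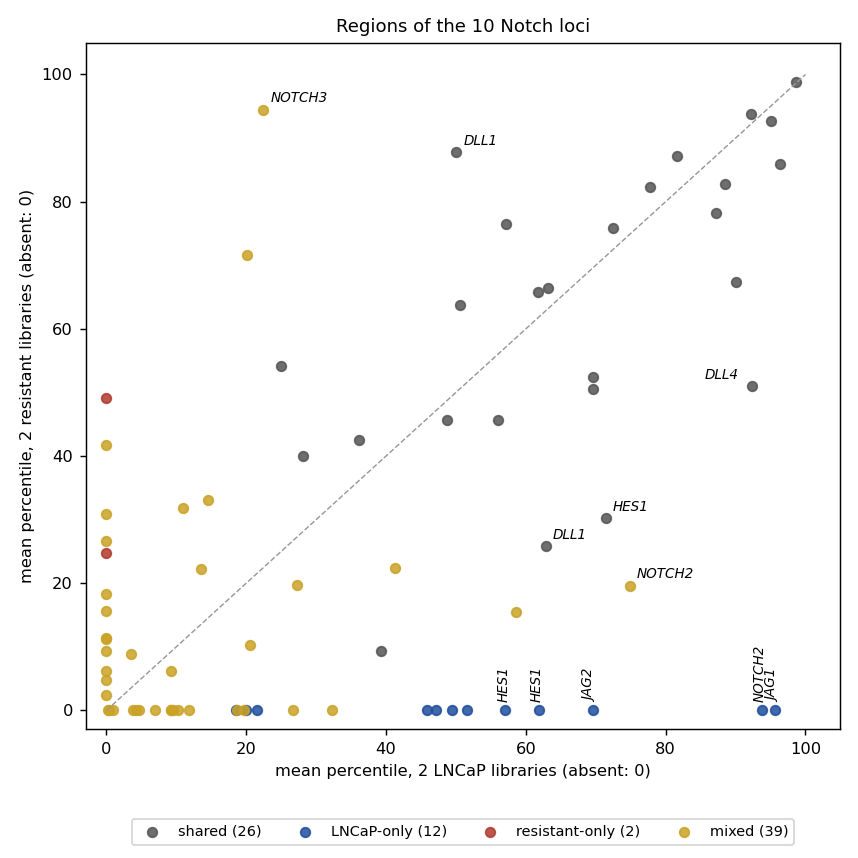
Mean percentile of each of the 79 member regions in the 2 LNCaP libraries (x axis) and the 2 resistant libraries (y axis), 0 where a library had no summit, coloured by class; the dashed line marks equal values, and named points differ by at least 55 percentile points, or by at least 35 if shared. The NOTCH2 and JAG1 sites lie at the lower right with no resistant summit, and the NOTCH3 site at the upper left.

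The rest of the pathway was read from a list of 37 further genes for ligands, nuclear partners, proteases, glycosyltransferases, regulators and HES or HEY relatives. Their strongest summits were lower in both resistant libraries for 13 genes, higher for 6 and overlapping for 18, with a median difference of −1.55. Set against the 40.9% lower and 14.7% higher among all protein-coding genes, these counts do not set the list apart. With equal lists 6 were lower and 18 higher, against 18.1% and 42.6%. At the promoter, with the full lists, 9 of the 37 were higher and 6 lower, against 20.4% and 15.3% of protein-coding genes. RBPJ, the DNA-binding partner of the cleaved receptor, was at 98.1 and 98.6 in LNCaP and at 97.3 and 89.2 in the resistant cells, near the top of every list, and it overlapped with equal lists.

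DLL3, a Delta-class ligand found on neuroendocrine tumours, was at 85.6 and 86.2 in LNCaP and at 79.8 and 76.6 in the resistant libraries. Its difference of −7.69 turned to 7.38 with equal lists. At its promoter, both resistant libraries ranked higher, at 42.0 and 43.7 in LNCaP against 47.1 and 50.8. HES6, a HES relative that counters HES1, was at 91.5 and 97.8 against 88.3 and 73.2, and the groups overlapped with equal lists. The HES6 promoter ranked higher in both resistant libraries, at 58.8 and 40.4 in LNCaP against 88.3 and 73.2. DLK1, a ligand-like protein without the full receptor-binding part, was at 86.2 and 91.8 in LNCaP and at 70.5 and 0 in the resistant cells, and it remained lower with equal lists, by a difference of −45.5.

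The genes that ranked higher with the full lists included LFNG, DTX2 and DTX3, and equal lists could not have turned them lower. LFNG, a glycosyltransferase that tunes which ligand a receptor answers, was at 74.8 and 83.0 in LNCaP and at 88.8 and 85.8 in the resistant libraries, and its difference was 36.6 with equal lists. Its promoter went the other way, at 44.8 and 49.5 in LNCaP against 30.4 and 0. DTX3, of the Deltex family of ubiquitin ligases, was at 71.5 and 56.2 against 88.5 and 83.7, higher by 22.2. With equal lists the difference was 69.5, as the LNCaP values fell to 26.7 and 0. DTX2, of the same family, was at 14.7 and 47.8 against 70.4 and 60.3, higher by 34.1. With equal lists the difference was 57.1, as the LNCaP values fell to 0 and 0. Genes that ranked lower in both scalings included HES2, at 82.8 and 84.9 against 69.6 and 49.6, and NRARP, a feedback inhibitor of the cleaved receptor, at 94.8 and 95.7 against 90.2 and 83.0. At the promoter, DLK1, HES2 and NRARP overlapped between the groups. RBPJ and DTX2 had no summit in any library within 1 kb of the 5′ end of the gene body, and DTX3 none near either end. Start sites further inside these genes were not examined. The windows of the 37 genes were not screened for the ends of other genes.

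**Figure D4:**
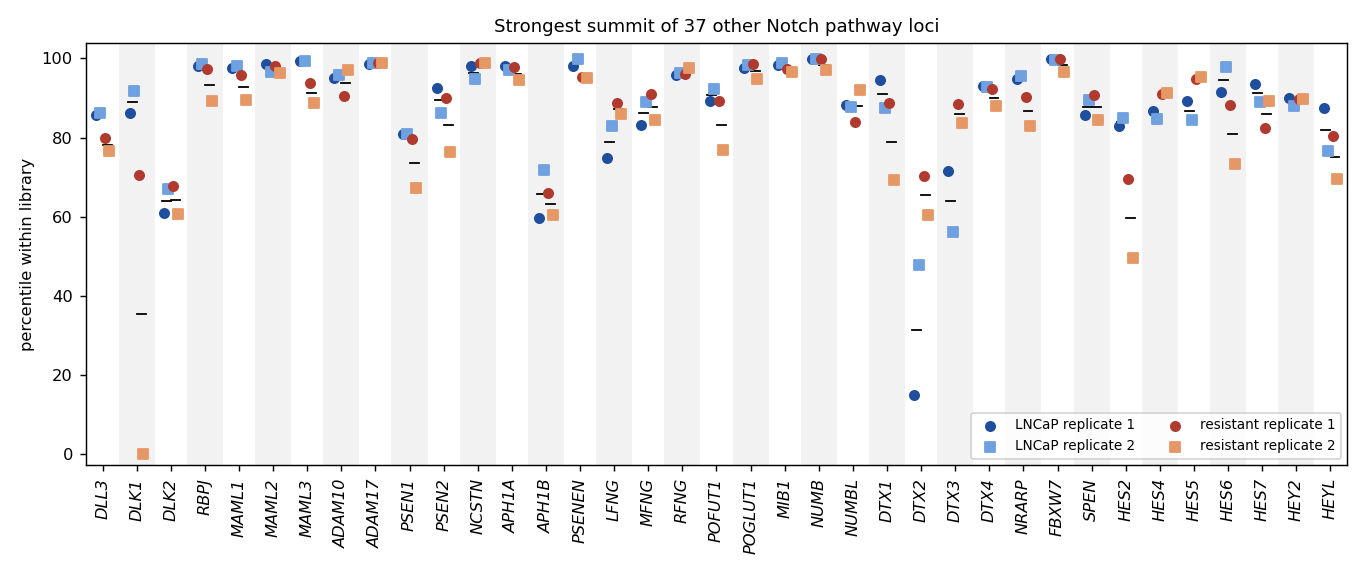
Percentile within its library of the strongest summit at each of 37 other Notch pathway loci (gene body with 20 kb on either side), for LNCaP (blue) and resistant (red and orange) libraries; points are single libraries and black lines are group means of 2. Most loci sit near the top of every list, and DLK1, DTX2, DTX3 and HES2 are the most widely separated.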

How the data were processed

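ATAC-seq libraries of LNCaP (2) and LNCaP-resistance cells (2) were grouped by their labels. The authors deposited 1 list of MACS2-style summits per library, called separately, with a score of the form −log10 p or q. Whether p or q is meant is not given in the sources used here. The lowest scores correspond to about 0.05. The submitters' processing notes name Bowtie2 2.2.5, SAMtools 1.6, MACS2 2.2.6, deepTools 3.5.2, HOMER 4.11, edgeR 3.22.5 and hg38. The lists give no read counts, so depth is unknown and no counting interval can be given.

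Summits were ranked within the whole list of their library. Those on main chromosomes were then widened by 250 bp on either side and merged across libraries. Equal lists were drawn from, and ranked among, summits on main chromosomes only. Loci were the RefSeq gene bodies of GRCh38.p14 with 20 kb flanks. Only ends of the gene body were taken as start sites, so starts further inside a gene were not examined. A promoter was within 1 kb of the 5′ end, or of either end for the genes whose strand was not in the promoter table, which gave it for 15843 of 20037 protein-coding genes, 8 of the 10 members and all but 7 of the 37 other genes. A difference is the resistant mean minus the LNCaP mean, with 0 for an absent summit, and the pooled SD is that between replicates.

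All members are named, with up to 4 regions per locus that were found in 1 cell type only or were shared with a difference of at least 20 points without overlap, plus the strongest, and, of the other genes, DLL3, RBPJ, HES6 and the 6 with the largest differences without overlap. The mixed regions of NOTCH2, NOTCH3 and HEY1, and shared flank regions of NOTCH3, DLL4 and HES1, were named after their values were seen. They carry the strongest summits there or adjoin a named region. Some genes of the marker lists are not reported here. Members and lists were chosen with earlier results of these data known.

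Replicate numbers, labelled as a batch, are shared by the groups. The deviations of equal numbers correlated at −0.0121 over 31833 shared regions. The alternatives tried were other window, flank and promoter sizes, a score minimum, equal list lengths, looser membership, summits near other genes left out, percentiles among shared regions, a replicate block, and each library left out. Values of single named regions under these settings, the shares of all genes and regions with equal lists, and the percentile limits of 90 and 50 were chosen after seeing the data. The computation was checked on simulated lists with 8000 planted regions and 959 planted rises, of which 100% were recovered. Python 3.11.15, numpy 2.4.6, pandas 2.3.3 and matplotlib 3.10.9 were used.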

Additional observations from a re-analysis of the deposited data

How the results depend on the processing

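List length turned the most values. With equal lists the member regions were 15 shared, 3 LNCaP-only and 11 resistant-only, and the counts of members higher and lower became 6 and 2 for the strongest summit, 5 and 1 for the number of summits, 6 and 0 for the promoter, 9 and 3 for shared regions, and 18 and 6 in the list of 37. Single differences that turned there were the summit numbers of NOTCH3 (2.5), JAG1 (0.5), JAG2 (1.5) and HEY1 (2), the strongest summits of DLL1 (0.047), JAG2 (20.1) and HES1 (25.1), and a DLL4 flank region (5.07). A score of at least 10 left 14 shared and 7 LNCaP-only regions, 1 member with more and 2 with fewer summits, and 2 shared regions higher and 5 lower, and it turned the summit numbers of JAG2 (0.5) and HEY1 (1.5).

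Flanks of 5 kb gave 16 shared regions and 1 resistant-only region, 2 members with a higher strongest summit, 3 with fewer summits, 3 shared regions higher and 5 lower, and 10 of the 37 higher, and turned the strongest summit of DLL1 (21.0) and the number of HES1 (0.5). Flanks of 50 kb gave 28 LNCaP-only and 6 resistant-only regions and 8 shared regions higher. Windows of 100 bp gave 4 resistant-only regions and 2 shared regions higher, and windows of 500 bp turned the HEY1 promoter region (22.1). Membership by at least 1 library gave 28 LNCaP-only and 13 resistant-only regions. Leaving out summits near other genes left 3 shared regions higher, and percentiles among shared regions gave 12. A promoter of 3 kb turned DLL1 (21.0) and HEY1 (−18.5).

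Leaving out 1 library at a time gave 13 to 23 LNCaP-only, 4 to 9 resistant-only and 26 to 29 shared regions. Members higher and lower were 1 to 2 and 6 to 8 for the strongest summit, 0 and 5 to 9 for the number, 3 to 5 and 1 to 3 for the promoter, 6 to 12 and 11 to 15 for shared regions, and 7 to 10 and 16 to 23 in the list of 37. LNCaP-only regions numbered 21 without LNCaP replicate 1 and 23 without LNCaP replicate 2. Taking differences within each replicate number, as a replicate block, gave 1 member higher and 7 lower for the strongest summit, and no count moved by over 1.5 times. Of 505 values of single members and regions, 393 moved by less than the spread between replicates, 97 by more and 15 turned. The 393 include all values under the replicate block, which leaves single differences unchanged and so could not move them. The LNCaP-only NOTCH2 and JAG1 sites and the NOTCH3 site kept their direction in each setting run for them. Equal lists and the score minimum could not have turned the NOTCH2 and JAG1 sites, where resistant summits were already absent. Equal lists could not have turned the NOTCH3 site either. Except for the changes that follow from fewer summits or other windows, the cause of these shifts was not tested. Depth is unknown, so a missing summit sets no limit on accessibility.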
